A study of Mus musculus with 22 samples.

Results

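Hippocampi of circTulp4-deficient (CD) and wild-type mice were compared by 3′ RNA-seq, using the 7 hippocampus libraries among the 22 libraries of the study. A library was taken as a member when its label named the hippocampus, which gave 4 CD hippocampi (mice m118, m138, m190 and m242) and 3 wild-type hippocampi (mice m162, m240 and m244). The study's text gives fewer hippocampi per genotype than the labels, and all labelled libraries were used. The remaining 15 libraries, 8 from cortex and 7 from cerebellum, served only to show whether a difference was also measured elsewhere in the brain. CD mice are homozygous for a CRISPR-Cas9 edit that replaces the AG of a splice acceptor in Tulp4 with TC and carries an additional change in the protospacer adjacent motif, and they were kept on a C57BL/6 background. The edit is carried in the germline and so by every cell of the body, lowers circTulp4 without removing it, and lies inside a protein-coding gene. Wild-type mice carry none of these changes. The age and sex of the sequenced mice are not given in the sources used here, each library is whole hippocampal tissue of 1 mouse, and the question was which transcripts differ between the genotypes.

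A circular RNA (circRNA) forms when a splice donor is joined to an acceptor upstream of it, a reaction called backsplicing, so that exonic sequence is closed into a ring without a 5′ end or a poly(A) tail. Libraries primed on poly(A) tails, as here, are made to capture linear transcripts, and whether counts from the circle are among those on Tulp4 was not tested. The hippocampus holds a trisynaptic excitatory circuit: granule cells of the dentate gyrus contact CA3 pyramidal neurons, which contact CA1 pyramidal neurons, with CA2 between both, and interneurons that release GABA set the excitability of each step. Fast excitation at these synapses runs through AMPA receptors, NMDA receptors gate plasticity, and scaffold proteins such as PSD-95 hold both in place. Neuronal levels of scaffolds and receptor subunits, glial genes and genes induced by activity were therefore read as groups.

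Tulp4 lies on chromosome 17 of mm10 (GRCm38), at chr17:6106253-6240637 in the RefSeq annotation, and circTulp4 covers chr17:6137211-6139156, the end of which is the end of the first exon of the linear transcript NM_054040.3. The sequence across the backsplice junction is shown because the edited acceptor stands directly before its first base in capitals. Lower case marks the last 10 bases of the circle (chr17:6139147-6139156) and capitals mark its first 10 bases (chr17:6137211-6137220), both on the plus strand and read from GENCODE transcripts of this build.
circTulp4 junction: caacagtgagAGTTGTAAGA

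Tulp4 was examined first, as the edited gene. On the transcript that stood for the gene (XM_006523251.3), the wild-type hippocampi of mice m162, m240 and m244 had 6.94, 6.10 and 9.56 counts per 1000000 counts of the library (cpm). The CD hippocampi of mice m118, m138, m190 and m242 had 6.46, 3.78, 4.94 and 5.98 cpm. The ranges overlapped through CD mouse m118, and the difference of the mean log2 values was -0.47 (two-sided exact permutation test, p = 0.114; Benjamini-Hochberg adjusted over 6 such values, 0.214). Without mouse m118 it was -0.57, and Tulp4 then was at an unadjusted p below 0.05 in edgeR, which it was not with all libraries. The smallest p that the 35 splits of 7 libraries allow is 0.0286. A measure closer to the edit is the number of counts on NM_054040.3 above those on NM_001103181.1, 2 linear transcripts that differ in their first exon. This excess was 17, 24 and 22 counts in the wild-type hippocampi, or 2.88, 2.71 and 3.69 cpm. It was 5, 3 and 4 counts in CD mice m138, m190 and m242, or 0.57, 0.42 and 0.56 cpm, and 16 counts, or 3.98 cpm, in CD mouse m118 (95% Poisson interval, 2.27 to 6.46 cpm). All but 1 of the 4 CD libraries thus lay below every wild-type library, whereas the library labelled CD mouse m118 lay above all of them and against its label. The first exon of NM_054040.3 (chr17:6138148-6139156) lies wholly within circTulp4. Whether the excess comes from linear RNA or from the circle was not tested. In brain, the study measured no genotype difference in linear Tulp4 by RT-qPCR or in Tulp4 protein by Western blot.

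The cortex and cerebellum libraries of mouse m118 had an excess of 5 and 7 counts (0.90 and 1.55 cpm). Wild-type libraries had 1.45 to 6.02 cpm in cortex and 3.12 to 13.6 cpm in cerebellum, and all CD libraries 0.14 to 1.29 cpm and 0.60 to 2.61 cpm, so that both of these libraries of mouse m118 lay below every wild-type library of their region. The label of the hippocampus library was kept, list counts that differ without it are given beside the lists, and whether the library was exchanged was not tested. With all libraries, the log2 difference of the excess was -1.28 (two-sided exact permutation test, p = 0.143), and without mouse m118 it was -1.81, with no test below 0.1 possible for 3 libraries against 3. The plot of values by library shows this excess beside the summed levels of choroid plexus and pituitary genes, which include most of the genes that varied most between mice.

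**Figure D1:**
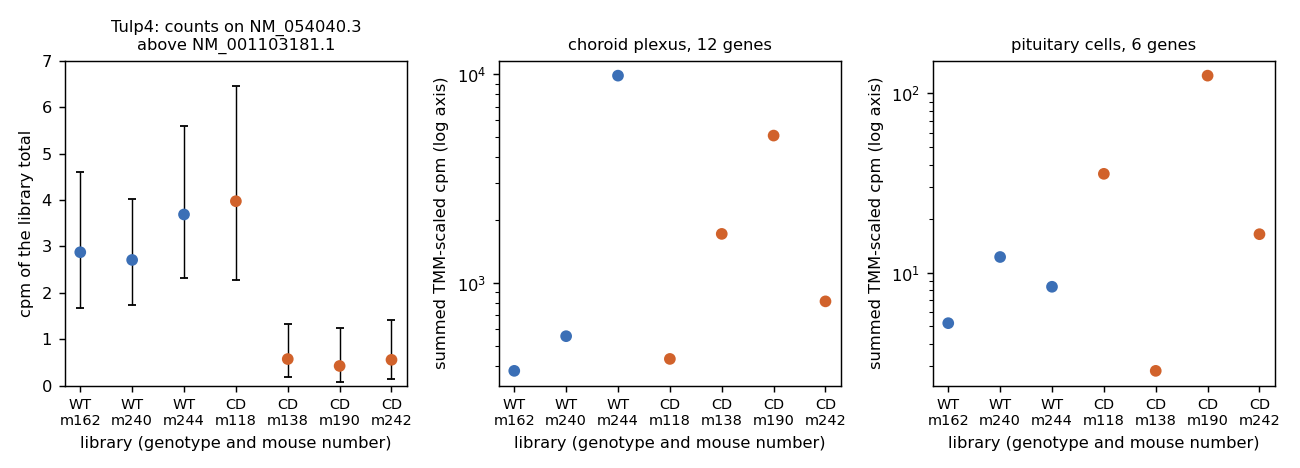
Per-library values of the 3 wild-type (blue) and 4 CD (orange) hippocampi: counts on NM_054040.3 above those on NM_001103181.1 in cpm (left; bars are 95% Poisson intervals), and the summed cpm of 12 choroid plexus genes (middle) and 6 pituitary genes (right), both on log axes. CD mouse m118 had a Tulp4 excess of 3.98 cpm against 0.42 to 0.57 cpm in the other CD mice, and the choroid plexus sum ran from 378 to 9844 cpm.

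One transcript per gene gave 4025493 to 8858940 counts per hippocampus library, lowest in CD mouse m118, and 5 cpm stood for 20.1 to 44.3 counts. Biological variation between mice of the same genotype was 15.6% (coefficient of variation from edgeR). With cpm scaled over all 22 libraries, markers matched the labelled tissue: C1ql2, which granule cells secrete, had 639 to 949 cpm over the hippocampi against 8.0 to 50.2 cpm in cortices and 7.81 to 14.6 cpm in cerebella. Neurod6, a transcription factor of forebrain pyramidal neurons, had 520 to 720 cpm in the hippocampi against 125 to 281 cpm in cortices. Cux2, which marks upper layers of the neocortex, had 5.72 to 7.90 cpm in the hippocampi and 52.2 to 89.9 cpm in cortices, and Cbln3, made by cerebellar granule cells, had 10.2 to 14.0 cpm against 1235 to 2250 cpm in cerebella. Xist, the RNA of the inactive X chromosome, was at 224 to 398 cpm in all 7 hippocampi. Ddx3y, a gene of the Y chromosome, was at 0 to 0.15 cpm in them, so that all 7 libraries had the pattern of female tissue.

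Of 23037 genes with a row, 9964 reached 5 cpm in at least 2 hippocampi and were tested. None passed the thresholds of FDR below 0.01 and a change of more than 2-fold up or down (fold below 0.5) in the quasi-likelihood test of edgeR (Benjamini-Hochberg adjusted) (0 genes, 0.0%), and the smallest FDR was 0.9975, so that nothing below is a called gene. At an unadjusted p below 0.05, 238 genes (2.39% of those tested) were higher and 182 (1.83%) were lower in CD hippocampi, 420 genes or 4.22% in all. Without CD mouse m118 these counts were 240 and 198. All CD libraries lay above all wild-type libraries for 276 genes (2.77%) and below them for 265 (2.66%), 5.43% in all. Most genes were bounded closely: the 95% interval of the fold change lay within 2-fold in either direction for 9331 genes (93.6%) and within 1.5-fold for 64.5%. Fold changes above 2 were estimated for 16 genes and below 0.5 for 8.

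**Figure D2:**
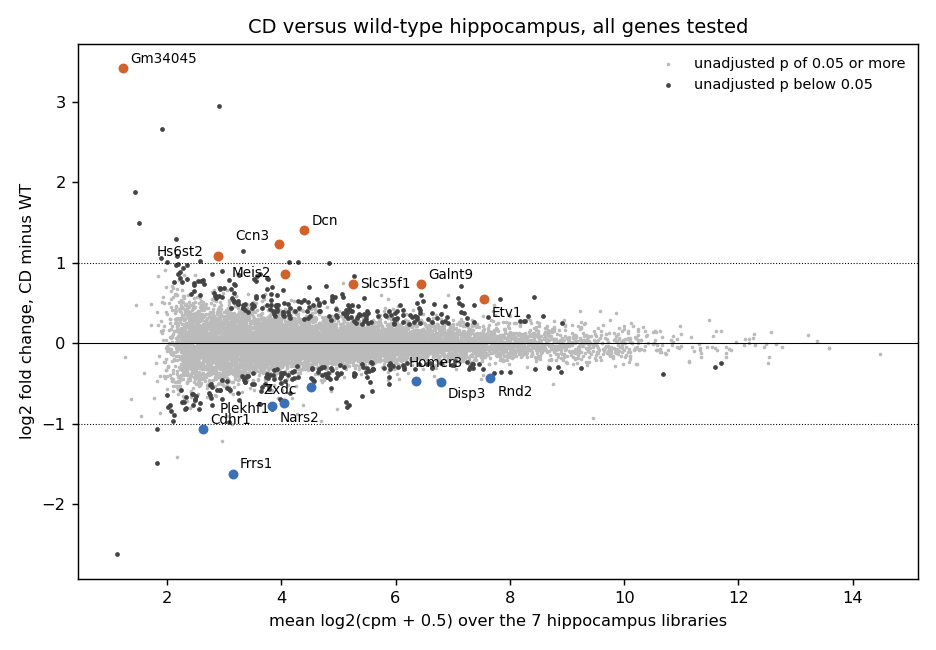
Log2 fold change between CD and wild-type hippocampi against mean log2(cpm + 0.5) for the 9964 genes tested, with genes at an unadjusted p below 0.05 in dark grey, the genes ranked first by p in color and dotted lines at 2-fold. The 10th and 90th percentiles of the log2 fold change were -0.24 and 0.24, and none of the points passed the FDR threshold.

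The genes ranked first by p are given as the ordering that the test produced, with 8 higher and 8 lower in CD hippocampi and an FDR of 0.9975 for each by the quasi-likelihood test of edgeR (Benjamini-Hochberg adjusted). Cpm values from here on are scaled by TMM, and libraries are listed as wild-type mice m162, m240 and m244 and then CD mice m118, m138, m190 and m242. Frrs1, which encodes a ferric-chelate reductase and lies at chr3:116859567-116907714, ranked first. Its level was 16.8, 11.9 and 22.8 cpm in wild-type hippocampi and 2.21, 6.22, 6.19 and 6.603 cpm in CD hippocampi, which gave a log2 fold change of -1.63 with a standard error of 0.30. The groups did not overlap, and mouse m118 was the lowest of all. Gm34045, a long noncoding RNA at chr10:119135154-119140827, had 0.67, 0.58 and 0.17 cpm in wild-type and 1.96, 6.67, 2.16 and 9.77 cpm in CD hippocampi. These are 10 and 153 counts over the libraries of each genotype, a ratio of 11.7 relative to library totals (95% interval for counting error only, 6.21 to 24.96), and the CD mice themselves differed widely. Gm34045 was below 5 cpm in every wild-type library and passed the filter only through CD mice m138 and m242.

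Dcn, Ccn3 and Hs6st2, among the higher genes, encode or modify parts of the extracellular matrix. Dcn encodes decorin, a small proteoglycan that binds collagen. Its level was 10.4, 10.2 and 16.99 cpm in wild-type and 24.3, 42.2, 18.9 and 45.5 cpm in CD hippocampi, which gave a log2 fold change of 1.40 (SE, 0.31). Ccn3 encodes a matricellular growth regulator and had 11.3, 12.7 and 4.66 cpm in wild-type and 18.4, 24.2, 19.3 and 28.6 cpm in CD hippocampi, which gave a log2 fold change of 1.24 (SE, 0.28). Hs6st2, a sulfotransferase that modifies heparan sulfate chains, had 3.87, 5.35 and 4.33 cpm against 10.1, 9.95, 7.34 and 11.3 cpm, a log2 fold change of 1.08 (SE, 0.23). Among wild-type mice, Hs6st2 reached 5 cpm only in mouse m240. For all 3 genes every CD library was above every wild-type library, and CD mouse m190 was the lowest or next to lowest of the CD mice.

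The other genes ranked among the higher ones were Galnt9, Meis2, Slc35f1 and Etv1. Galnt9, which starts mucin-type O-glycosylation, had 50.3 to 76.9 cpm in wild-type and 87.2 to 121 cpm in CD hippocampi (log2 fold change, 0.73; SE, 0.16). Meis2, a homeobox transcription factor, had 10.2 to 13.1 cpm against 16.1 to 25.3 cpm (log2 fold change, 0.86; SE, 0.19). Slc35f1, a member of a nucleotide sugar transporter family, had 26.1 to 32.8 cpm against 38.7 to 60.8 cpm (log2 fold change, 0.73; SE, 0.17). Etv1, an ETS transcription factor, had 136 to 182 cpm against 194 to 235 cpm (log2 fold change, 0.54; SE, 0.13). In each of these the gap between the genotypes was smaller than the spread within the CD mice.

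Among the lower genes, Homer3 is a postsynaptic scaffold that binds group I metabotropic glutamate receptors, and in this list it also stands for CA3 neurons. It had 96.4, 95.4 and 103 cpm in wild-type and 73.8, 59.1, 75.5 and 75.0 cpm in CD hippocampi, which gave a log2 fold change of -0.48 (SE, 0.11). Disp3, a transmembrane protein of the dispatched family, had 132, 134 and 137 cpm against 76.3, 96.9, 102 and 109 cpm (log2 fold change, -0.48; SE, 0.12). Rnd2, a small GTPase that acts in the migration of cortical neurons, had 205 to 262 cpm against 160 to 195 cpm (log2 fold change, -0.43; SE, 0.11). The wild-type libraries of Homer3 and Disp3 were close together, and the CD libraries lay below them with a wider spread.

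Cdhr1, a cadherin known from photoreceptors, had 6.73 to 10.99 cpm in wild-type and 3.58 to 4.66 cpm in CD hippocampi (log2 fold change, -1.07; SE, 0.24). Cdhr1 was below 5 cpm in every CD library and passed the filter only through wild-type libraries. Nars2, the mitochondrial asparaginyl-tRNA synthetase, had 16.0 to 23.0 cpm against 8.78 to 13.9 cpm (log2 fold change, -0.78; SE, 0.20). Plekhf1, an endosomal and lysosomal protein, had 18.1 to 28.3 cpm against 10.9 to 16.2 cpm (log2 fold change, -0.74; SE, 0.20). Zxdc, a zinc finger protein, had 23.9 to 30.7 cpm against 15.9 to 20.3 cpm (log2 fold change, -0.55; SE, 0.15). None of the 8 lower genes overlapped between genotypes, which the ranking by p itself favors.

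**Figure D3:**
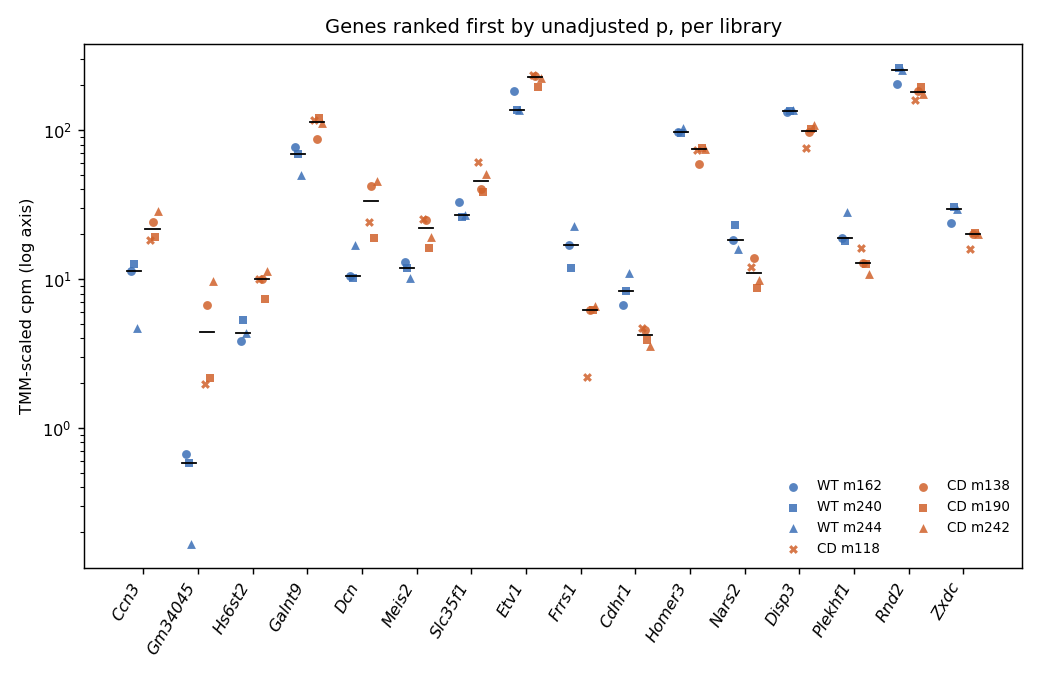
TMM-scaled cpm on a log axis of the 16 genes ranked first by unadjusted p, for each wild-type (blue) and CD (orange) hippocampus, with a black line at each group's median. No wild-type and CD libraries overlap for these genes, from 0.17 cpm for Gm34045 in wild-type mouse m244 to 262 cpm for Rnd2 in wild-type mouse m240.

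Whether these genes passed depended on the filter and on the tool. Without the filter on low counts, 6 genes passed both thresholds in edgeR's quasi-likelihood test, namely Gm36251, Frrs1, Gm34045, Dcn, Ccn3 and Gh, and Galnt9 had an FDR of 0.00606 at less than 2-fold. DESeq2's Wald test called 2 genes, Frrs1 (FDR, 0.00337) and Gm34045 (FDR, 0.00643), and gave Benjamini-Hochberg adjusted values of 0.0144 for Dcn and 0.0373 for Ccn3 and Galnt9. No gene was called with limma-voom, with other scaling, with a fit of all 22 libraries, or with any single library left out. Gm36251, a long noncoding RNA at chr9:113043354-113123427, did not reach the filter. It had 0, 1 and 0 counts in wild-type and 7, 19, 13 and 50 counts in CD hippocampi, so that all 4 CD libraries were above all wild-type libraries. The ratio of the summed counts relative to library totals was 68.3, with a 95% interval for counting error of 11.9 to 2726, and the two-sided exact permutation test gave the smallest p possible for these libraries, 0.0286 (adjusted over 6 values, 0.171).

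In the other regions Gm36251 had 4.92 to 8.24 cpm in wild-type and 4.47 to 12.2 cpm in CD cortices, and at most 0.41 cpm in any cerebellum. H19, an imprinted noncoding RNA of fetal tissues, was also below the filter. It had 1.51, 3.14 and 13.3 cpm in wild-type and 1.47, 1.13, 1.58 and 1.10 cpm in CD hippocampi. The wild-type mean rested on mouse m244, the library with the highest choroid plexus sum, and the part of that sum in the H19 level was not tested. The log2 difference was -1.37 (two-sided exact permutation test, p = 0.0571; adjusted over 6 values, 0.171), and it was -0.58 without mouse m244 and -1.97 without mouse m162.

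The genotype difference in the hippocampus was then set against that in cortex and cerebellum in a fit of all 22 libraries. The difference of differences passed an FDR of 0.05 for 0 of 11137 genes (0.0%) against the cortex and for 0 (0.0%) against the cerebellum by the quasi-likelihood test of edgeR (Benjamini-Hochberg adjusted). At an unadjusted p below 0.05 it was 373 genes (3.35%) and 485 genes (4.35%). For Ccn3 the log2 fold change was 1.24 ± 0.28 (SE) in the hippocampus, with 0.08 ± 0.26 for cortex and -0.45 ± 0.39 for cerebellum. The difference from the cortex was 1.15 (SE, 0.38). For Dcn the values were 1.40 ± 0.33, -0.10 ± 0.34 and -0.28 ± 0.35, with a difference from the cortex of 1.503 (SE, 0.47). For Frrs1 they were -1.64 ± 0.52, -1.23 ± 0.57 and -1.96 ± 0.78, and the difference from the cortex was -0.41 (SE, 0.79). The Frrs1 estimate was thus below 0 in each region, but regions come from the same mice. With cpm scaled over all 22 libraries, Frrs1 overlapped between genotypes in cortex (0.91 to 10.3 cpm in wild-type, 2.43 to 3.43 cpm in CD) and in cerebellum (0.51 to 6.83 cpm and 0.37 to 1.24 cpm). Ccn3, Dcn and Frrs1 were chosen by their p in the hippocampus, so that a large hippocampal estimate was favored by the choice. The adjusted test separated the regions for none of these genes.

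**Figure D4:**
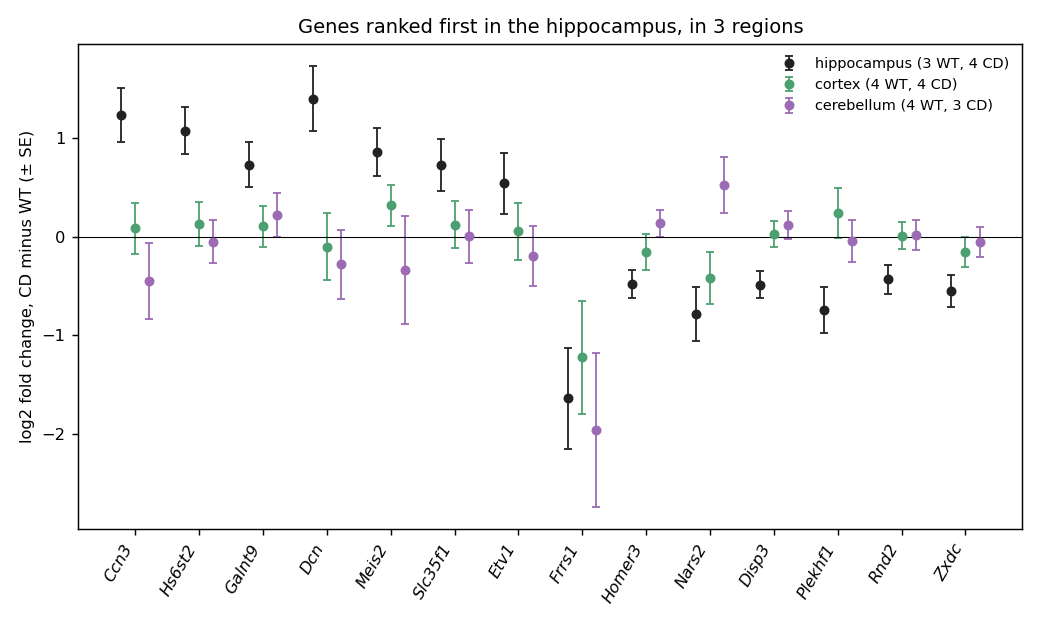
Log2 fold change between CD and wild-type mice, with its SE, in hippocampus (black), cortex (green) and cerebellum (purple), from a fit of all 22 libraries, for the genes ranked first in the hippocampus (Gm34045 and Cdhr1 are not drawn). Frrs1 was at -1.64, -1.23 and -1.96 in the 3 regions, and Dcn at 1.40, -0.10 and -0.28.

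Gene groups were described by 24 lists of cell type genes and 28 lists of functions, with 778 of 786 listed genes in the table and 634 tested. Each list is given by the number of its members at an unadjusted p below 0.05 and by the median of its log2 fold changes, to be read against 2.39% and 1.83% of all tested genes higher and lower and against a median of -0.006 over all of them. In bulk tissue, fewer cells of a type and less RNA per cell cannot be told apart. Members of a list share mice and libraries and are not replicates. The lists and their members were chosen with earlier results of these data known, so that their counts are not tests.

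The lists of pyramidal and granule cell genes held few members at the threshold. Of 8 CA1 genes, 1 was higher at an unadjusted p below 0.05, Mpped1, a metallophosphoesterase-domain protein, with 128, 134 and 73.6 cpm in wild-type and 212, 149, 167 and 134 cpm in CD hippocampi (log2 fold change, 0.56; SE, 0.21). It was not at that threshold without mouse m118, and the groups overlapped. Wfs1, an endoplasmic reticulum protein that marks dorsal CA1, had 22.5 to 38.2 cpm in wild-type and 30.3 to 36.5 cpm in CD hippocampi, and Fibcd1 had 33.5 to 97.9 cpm and 83.9 to 102 cpm. Wild-type mouse m244 was the lowest library for Mpped1, Wfs1 and Fibcd1. The CA1 list had a median log2 fold change of 0.16, which was -0.004 without mouse m244, and its sum was 217 to 386 cpm in wild-type and 380 to 461 cpm in CD hippocampi.

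All 5 tested CA3 genes were below 0 in log2 fold change (all genes tested, 51.3%), with a median of -0.27 and Homer3 as the only member at an unadjusted p below 0.05. The summed CA3 level was 155, 170 and 185 cpm in wild-type and 130, 123, 138.1 and 134 cpm in CD hippocampi, without overlap. Homer3, chosen above by its p, made up 59.1 to 103 cpm of that sum, and without Homer3 the summed levels overlapped between the genotypes. Grik4, a kainate receptor subunit of CA3 neurons, had 6.90 to 8.49 cpm in wild-type and 6.13 to 8.48 cpm in CD hippocampi. Without wild-type mouse m244 the median of the list was -0.07. Of 8 dentate granule cell genes, 0 were at an unadjusted p below 0.05, and the median was -0.20, or -0.01 without mouse m242. Prox1, the transcription factor that specifies granule cells, had 416 to 540 cpm in wild-type and 312 to 503 cpm in CD hippocampi, and C1ql2 had 695 to 926 cpm and 625 to 786 cpm. Of 6 CA2 genes, 0 were at this threshold (median, -0.04). Rgs14, which limits plasticity in CA2, had 3.50 to 6.51 cpm and 4.97 to 6.19 cpm, and Amigo2 had 43.1 to 48.8 cpm and 34.8 to 43.7 cpm.

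Genes shared by all neurons had a median log2 fold change of -0.007 over 10 genes. Rbfox3, the splicing factor known as NeuN, had 730 to 840 cpm in wild-type and 736 to 852 cpm in CD hippocampi, and Snap25, a SNARE protein of synaptic vesicle fusion, had 996 to 1184 cpm and 956 to 1110 cpm. Elavl4, an RNA-binding protein that stabilizes neuronal mRNAs, was the 1 member at an unadjusted p below 0.05, with 63.6, 62.7 and 53.5 cpm against 72.8, 83.9, 69.1 and 91.1 cpm (log2 fold change, 0.40; SE, 0.13), and without mouse m118 there were 2 higher members. Among 10 genes of glutamatergic neurons, 8 were below 0 (all genes tested, 51.3%), with a median of -0.12. Nptx1, a pentraxin that clusters AMPA receptors, had 516, 501 and 538 cpm in wild-type and 387, 370, 501 and 426 cpm in CD hippocampi (log2 fold change, -0.30; SE, 0.12, and not at the threshold without mouse m118). In its place, 1 other gene of this list was lower at the threshold without that mouse. Slc17a7, the vesicular glutamate transporter VGLUT1, had 442 to 702 cpm against 406 to 585 cpm, and Neurod6 had 527 to 700 cpm against 507 to 702 cpm.

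Of 14 interneuron genes, 10 were above 0 (all genes tested, 48.7%), with a median of 0.20 that was 0.05 without wild-type mouse m244, and 0 were at an unadjusted p below 0.05, or 1 higher without mouse m118. Gad1, which makes GABA, had 62.5 to 86.6 cpm in wild-type and 76.5 to 91.7 cpm in CD hippocampi, and Sst, the neuropeptide somatostatin, had 3607 to 5198 cpm and 3988 to 5563 cpm. Calb2, used for mossy cells of the hilus, had 55.0 to 115 cpm and 49.3 to 98.8 cpm. In the list of 2 tested genes of immature neurons, Dcx had 5.996 to 9.07 cpm and 6.62 to 9.35 cpm and Sox11 had 25.2 to 45.6 cpm and 36.7 to 43.3 cpm, with ranges that overlapped for both.

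The lists of glial genes held few members at the threshold as well. Gfap, the intermediate filament of astrocytes, had 557, 803 and 702 cpm in wild-type and 590, 524, 589 and 510 cpm in CD hippocampi, which gave a log2 fold change of -0.31 (SE, 0.13), and its ranges overlapped. The other 13 astrocyte genes did not reach an unadjusted p of 0.05, and the median of the 14 was 0.04. Aqp4, the water channel of astrocyte endfeet, had 77.4 to 98.8 cpm in wild-type and 67.8 to 87.3 cpm in CD hippocampi. Of 14 oligodendrocyte genes, 13 were below 0 (all genes tested, 51.3%) with a median of -0.16, and without CD mouse m118 all 14 were below 0 with a median of -0.27, 2 of them at an unadjusted p below 0.05. Without mouse m242 the median was -0.04. Gjc3, a gap junction protein of myelinating glia, was the 1 member at that threshold with all libraries (16.6 to 20.2 cpm against 12.2 to 16.4 cpm; log2 fold change, -0.37; SE, 0.16). The summed oligodendrocyte level was 6024, 7127 and 5880 cpm in wild-type and 7072, 5599, 6147 and 4449 cpm in CD hippocampi, which overlapped, with mouse m242 the lowest. Mbp, the myelin basic protein, had 1700 to 1989 cpm against 1264 to 2281 cpm, with the highest value in CD mouse m118.

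Microglial genes (10 tested, median, -0.06) and oligodendrocyte precursor genes (6 tested, median, -0.08) had 0 members at an unadjusted p below 0.05. Cx3cr1, the fractalkine receptor of microglia, had 26.2 to 31.0 cpm in wild-type and 27.8 to 34.6 cpm in CD hippocampi. P2ry12, a purinergic receptor of microglia that did not pass the filter, had 4.77 to 5.05 cpm against 3.43 to 4.63 cpm. Of the 10 tested microglial genes 6 were below 0 (all genes tested, 51.3%), and 2 were lower without overlap (all genes tested, 2.66%). Pdgfra, a growth factor receptor of precursors, had 36.9 to 69.1 cpm and 41.2 to 53.5 cpm. In vessels, Slco1a4, an endothelial organic anion transporter, had 57.5, 69.9 and 77.6 cpm in wild-type and 47.8, 52.6, 66.9 and 50.6 cpm in CD hippocampi (log2 fold change, -0.32; SE, 0.14, and not at the threshold without mouse m118, when 1 other endothelial gene was higher at it). Acta2, the actin of arterial smooth muscle, had 38.0, 70.3 and 61.6 cpm against 39.5, 40.1, 40.1 and 42.6 cpm (log2 fold change, -0.48; SE, 0.17), so that wild-type mouse m162 was as low as the CD mice. The endothelial list had a median of -0.19, or -0.03 without mouse m118, and the mural list had a median of -0.04. Ependymal genes had 0 of 4 members at the threshold and a median of -0.26, or 0.01 without mouse m244.

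Tissue at the border of the dissection differed between mice of either genotype. The sum of 12 choroid plexus genes was 378, 554 and 9844 cpm in wild-type and 431, 1715, 5079 and 814 cpm in CD hippocampi, and the list had a median log2 fold change of -0.67 with 0 of 10 members at an unadjusted p below 0.05. Without wild-type mouse m244 the median was 1.82, so its direction rested on that library. Ttr, the thyroid hormone carrier that the choroid plexus secretes, had 133, 271 and 7894 cpm in wild-type and 117, 1150, 4011 and 522 cpm in CD hippocampi. The genes with the largest SD of log2 cpm over the 7 libraries were Ttr (2.36), Slc4a5 (2.11), Gh (2.06), Kcnj13 (1.97), Six3 (1.95), Kcne2 (1.95), Prl (1.88), F5 (1.85), Folr1 (1.82) and Prlr (1.72). Most of these are transport or receptor genes of the choroid plexus. Six3, a forebrain homeobox gene, followed another order, with 1.01, 0.58 and 34.0 cpm in wild-type and 31.2, 8.36, 11.4 and 5.64 cpm in CD hippocampi.

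Meningeal fibroblast genes other than Dcn were lower in the CD estimate: 6 of 7 tested were below 0 (all genes tested, 51.3%), with Igf2 at 39.5, 44.9 and 151 cpm in wild-type and 41.7, 74.0, 72.8 and 37.6 cpm in CD hippocampi. Igf2, a growth factor of leptomeninges and choroid plexus, was highest in the library with the highest choroid plexus sum. The median of the list was -0.42, or 0.01 without mouse m244, so its direction rested on that library. Dcn was the 1 member above 0, at 1.40, and the summed list was 84.3 to 234 cpm in wild-type and 89.8 to 155 cpm in CD hippocampi. Gh and Prl, the hormones of the anterior pituitary, were the 2 tested pituitary genes. Gh had 2.02, 6.05 and 3.16 cpm in wild-type and 21.8, 0.79, 90.5 and 8.39 cpm in CD hippocampi (log2 fold change, 2.95; SE, 1.09). Prl had 1.18, 3.37 and 0.17 cpm against 11.3, 0.79, 27.1 and 5.23 cpm (log2 fold change, 2.66; SE, 0.97). Both were high in mice m190 and m118 and within or below the wild-type range in mouse m138, and the part of pituitary tissue in these values was not tested. Prl was below 5 cpm in every wild-type library and passed the filter only through CD libraries. Among wild-type hippocampi, Gh reached 5 cpm only in mouse m240. With cpm scaled over all 22 libraries, Gh had 0.79 to 3.47 cpm in wild-type and 1.49 to 58.0 cpm in CD cortices, and 1.29 to 10.2 cpm and 0.37 to 54.2 cpm in cerebella. Prl had 0 to 2.61 cpm and 0.89 to 21.1 cpm in cortices, and 0.60 to 1.74 cpm and 0.37 to 31.0 cpm in cerebella. Hemoglobin in the hippocampi was highest in mouse m118, with 5897 cpm of Hba-a1 against 2336 to 4166 cpm in the other 6 hippocampus libraries. The blood list had 0 of 5 members at an unadjusted p below 0.05, whereas 4 of 5 were lower at that threshold without mouse m118.

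Lists for neighboring brain regions held 1 of 6 (thalamus and habenula), 2 of 7 (neocortex), 1 of 6 (cerebellum) and 0 of 5 members (striatum) at the threshold, all higher, and without mouse m118 the striatal list had 1 lower. The striatal median was -0.12, or 0.09 without mouse m244. Tac2, a tachykinin used here for the habenula, had 16.99, 21.98 and 11.8 cpm in wild-type and 23.3, 30.5, 26.8 and 29.2 cpm in CD hippocampi (log2 fold change, 0.69; SE, 0.20). The other 5 tested genes of that list were between -0.11 and 0.13, with the thalamic transcription factor Tcf7l2 at 14.8 to 22.5 cpm and 13 to 20.4 cpm. Fezf2, a transcription factor of deep neocortical layers that is also made in the hippocampus, had 161, 149 and 108 cpm against 161.9, 212, 170 and 228 cpm (log2 fold change, 0.47; SE, 0.16). Pcdh19, a protocadherin, had 86.9 to 90.7 cpm against 96.7 to 114 cpm (log2 fold change, 0.26; SE, 0.10). Neither gene overlapped between the genotypes, while the summed neocortical list, 351 to 402 cpm and 400 to 467 cpm, did, and its median of 0.22 was 0.06 without mouse m244 and 0.09 without mouse m118. Scaled over all 22 libraries, wild-type Pcdh19 was at 89.1 to 93.2 cpm in hippocampus and 32.5 to 46.2 cpm in cortex. CD libraries also had more Pcdh19 in hippocampus than in cortex. Fezf2 overlapped between these regions, at 110.8 to 165.8 cpm and 66.15 to 177.8 cpm in wild-type mice. The members of this list at the threshold thus did not mark neocortical tissue here. Zic2, a zinc finger transcription factor, had 9.42, 3.49 and 7.66 cpm against 9.32, 11.9, 11.6 and 11 cpm (log2 fold change, 0.72; SE, 0.29). Rorb, Cux2 and Cbln3 overlapped between the genotypes.

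**Figure D5:**
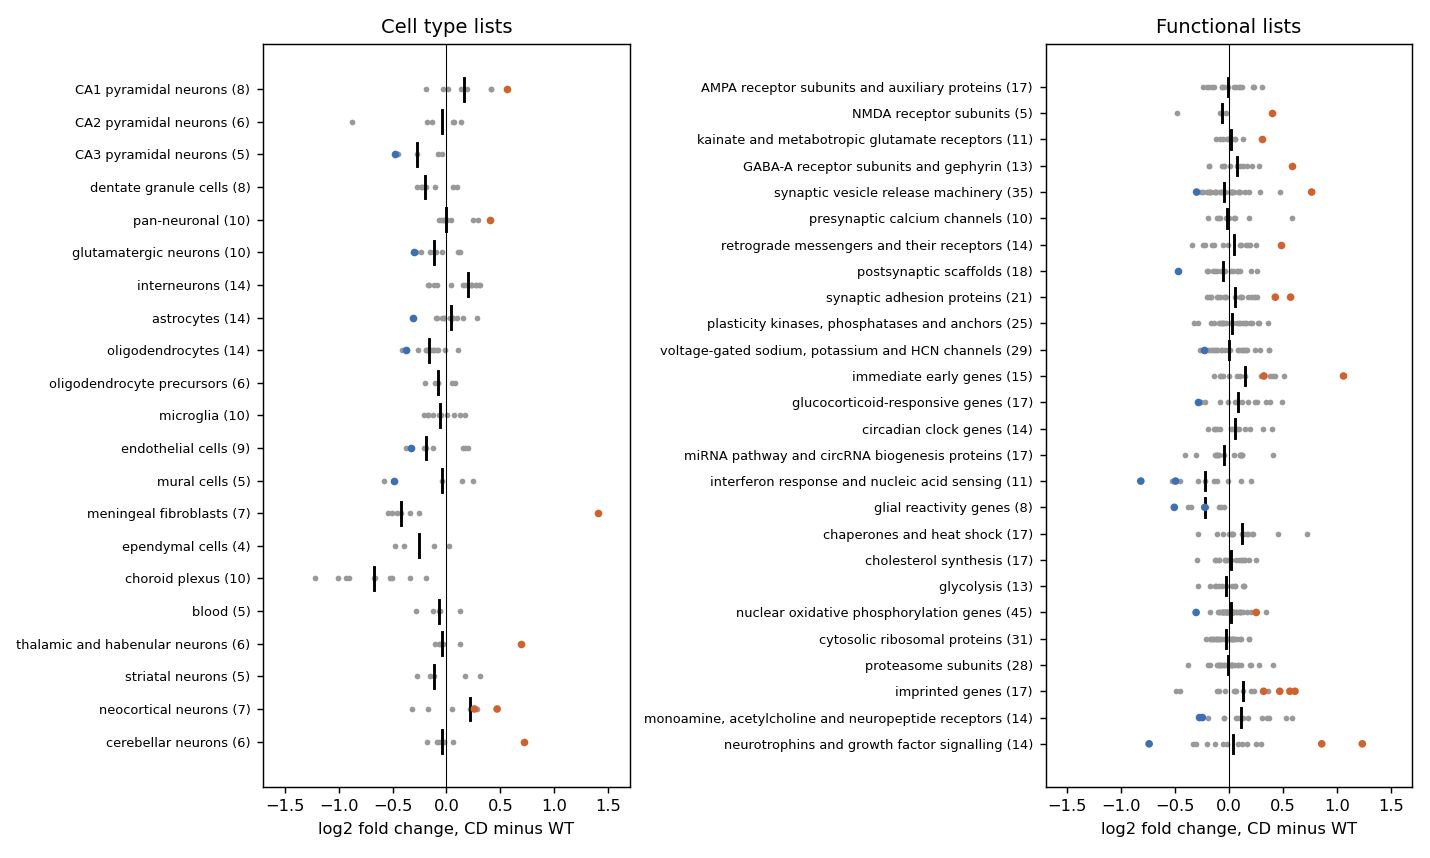
Log2 fold change of each tested member (points) and the median (black bar) of the cell type lists (left) and functional lists (right) with at least 4 tested genes, the number tested in parentheses, with members at an unadjusted p below 0.05 in orange (higher in CD) or blue (lower). List medians lay between -0.67 (choroid plexus) and 0.22 (neocortical neurons).

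Synaptic genes were grouped by role, beginning with the receptors on the postsynaptic side. Of 17 tested AMPA receptor subunits and auxiliary proteins, 0 were at an unadjusted p below 0.05, 8 were above and 9 below 0, and the median was -0.01, or -0.07 without mouse m118, when 1 was lower at the threshold. Gria1, the GluA1 subunit, had 390, 357 and 621 cpm in wild-type and 485, 378, 348 and 369 cpm in CD hippocampi, and its fold change of 0.87 had a 95% interval of 0.65 to 1.15. Gria2, the subunit that makes AMPA receptors impermeable to calcium, had 829, 703 and 862 cpm against 1098, 788, 759 and 697 cpm, a fold change of 1.05 (95% interval, 0.83 to 1.32). In both, single libraries set the range, mouse m244 for Gria1 and mouse m118 for Gria2, and the direction of either turned when such a library was left out.

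Of 5 tested NMDA receptor subunits, Grin3a was higher at an unadjusted p below 0.05, with 37.9, 54.3 and 39.0 cpm in wild-type and 53.0, 64.4, 46.5 and 66.4 cpm in CD hippocampi (log2 fold change, 0.39; SE, 0.17). Grin3a encodes a subunit that lowers calcium flow through the receptor. The obligatory subunit Grin1 had 229 to 238 cpm in wild-type and 205 to 239 cpm in CD hippocampi, and Grin2a had 1.98 to 8.83 cpm and 1.87 to 7.11 cpm. Among 11 kainate and metabotropic receptor genes, Grm5, the group I receptor mGluR5, was the 1 member at the threshold. It had 143, 138.3 and 125 cpm in wild-type and 160, 160, 178 and 170 cpm in CD hippocampi, without overlap (log2 fold change, 0.31; SE, 0.10). Grik2, a kainate receptor subunit, had 51.4 to 61.2 cpm and 42.4 to 59.4 cpm.

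Gabra3, the alpha 3 subunit of GABA-A receptors, was the 1 of 13 inhibitory receptor genes at an unadjusted p below 0.05, with 11.4, 10.9 and 7.33 cpm in wild-type and 13.7, 16.3, 13.5 and 15.8 cpm in CD hippocampi (log2 fold change, 0.58; SE, 0.19). Gabra2, another alpha subunit, had 160 to 218 cpm and 81.3 to 210 cpm, lowest in CD mouse m190. The median of that list was 0.08, or -0.04 without mouse m118. Of 18 postsynaptic scaffolds, Homer3 alone was at the threshold (median, -0.05), and 1 higher member joined it without mouse m118. Dlg4, which encodes PSD-95, had 130, 129 and 95.6 cpm in wild-type and 159, 127, 154 and 63.6 cpm in CD hippocampi, a fold change of 1.06 (95% interval, 0.72 to 1.56). CD mouse m242 was the lowest and CD mouse m118 the highest of the 7. Homer1 had 64.0 to 87.3 cpm and 79.9 to 88.0 cpm.

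Plasticity kinases, phosphatases and anchors had 0 of 25 members at the threshold, or 1 lower without mouse m118, and a median of 0.02. Ppp2r1b, a scaffold subunit of the phosphatase PP2A, had 11.8 to 13.5 cpm in wild-type and 9.49 to 14.6 cpm in CD hippocampi, a fold change of 0.96 (95% interval, 0.73 to 1.26). Ppp3cc, a catalytic subunit of calcineurin, did not pass the filter, with 4 to 8 counts in wild-type and 3 to 12 counts in CD libraries. Its levels of 0.67 to 1.33 cpm and 0.74 to 1.51 cpm overlapped, and a difference was not detectable at this depth.

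On the presynaptic side, 35 genes of the vesicle release machinery had a median of -0.05, with 1 member higher and 1 lower at an unadjusted p below 0.05. Cplx2, a complexin that clamps and then promotes vesicle fusion, had 3529, 3370 and 3499 cpm in wild-type and 2725, 2502, 3197 and 2834 cpm in CD hippocampi, without overlap (log2 fold change, -0.30; SE, 0.11). Unc13c, a vesicle priming factor, had 11.1, 6.28 and 8.66 cpm against 19.4, 13.8, 7.48 and 18.4 cpm (log2 fold change, 0.77; SE, 0.31, and not at the threshold without mouse m118), and CD mouse m190 lay among the wild-type mice. In place of Unc13c, 1 other gene of this list was higher at the threshold without mouse m118. Syn1, the vesicle protein synapsin 1, had 909, 934 and 731 cpm against 725, 796, 847 and 970 cpm, a fold change of 0.97 (95% interval, 0.80 to 1.18), and Syp had 233 to 335 cpm and 258 to 316 cpm. Of 10 presynaptic calcium channel genes, 0 were at the threshold with all libraries, and 1 was higher and 2 were lower at it without mouse m118, with Cacna1a at 55.0 to 70.1 cpm and 46.9 to 77.8 cpm and Cacna1b at 15.1 to 20.5 cpm and 14.9 to 24.5 cpm.

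Retrograde messengers carry signals from the postsynaptic to the presynaptic cell. Gucy1a1, a subunit of the guanylyl cyclase that nitric oxide activates, had 8.75, 10.7 and 6.995 cpm in wild-type and 12.5, 12.3, 12.4 and 12.5 cpm in CD hippocampi (log2 fold change, 0.48; SE, 0.18), and it was the 1 of 14 genes at the threshold. Dagla, which makes the endocannabinoid 2-AG, had 117 to 123 cpm and 86.8 to 111 cpm without overlap, at the threshold only without mouse m118, and Cnr1, its receptor, had 22.5 to 28.6 cpm and 27.6 to 34.6 cpm. Among 21 adhesion genes, Lrrtm3, a leucine-rich synapse organizer, had 33.8, 30.6 and 27.2 cpm against 34.8, 47.2, 38.6 and 42.9 cpm (log2 fold change, 0.43; SE, 0.14). Cadm1, an immunoglobulin-type adhesion molecule, had 385, 230 and 225 cpm against 412, 439, 330 and 480 cpm (log2 fold change, 0.57; SE, 0.19), with wild-type mouse m162 within the CD range. Nlgn1, a postsynaptic organizer, overlapped between the genotypes.

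Of 29 sodium, potassium and HCN channel genes, Kcnq5, a subunit of the M-current, was at the threshold with 49.5 to 53.6 cpm in wild-type and 41.6 to 45.1 cpm in CD hippocampi (log2 fold change, -0.23; SE, 0.10). The list median was 0.002, or -0.10 without mouse m118. Scn2a had 79.8 to 106 cpm and 101 to 168 cpm. Among 14 receptors for monoamines, acetylcholine and neuropeptides, Npy2r, a presynaptic receptor of neuropeptide Y, had 75.9 to 79.4 cpm against 55.0 to 70.6 cpm (log2 fold change, -0.27; SE, 0.11). Chrm1, the M1 muscarinic receptor, had 3434 to 4024 cpm against 2778 to 3470 cpm (log2 fold change, -0.25; SE, 0.11), and without mouse m118 it was not at the threshold and 1 other member was higher at it, while Htr1a had 7.66 to 14.5 cpm and 10.7 to 16.0 cpm. In growth factor signalling, 2 of 14 genes were higher at the threshold, Ccn3 and Erbb4, a neuregulin receptor of interneurons with 2.33 to 3.37 cpm against 4.60 to 6.13 cpm (log2 fold change, 0.86; SE, 0.27). Erbb4 was below 5 cpm in every wild-type library and passed the filter only through CD libraries. Ngfr, the p75 neurotrophin receptor, was the 1 lower member, with 6.06 to 9.16 cpm against 3.44 to 6.04 cpm (log2 fold change, -0.74; SE, 0.26), and without mouse m118 there were 2 lower members. Bdnf had 44.9 to 55.1 cpm and 37.8 to 62.1 cpm, and its receptor Ntrk2 had 203 to 270 cpm and 265 to 329 cpm.

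Genes induced by neuronal activity were above 0 in 10 of 15 cases (all genes tested, 48.7%), with a median of 0.15. Npas4, an activity-dependent transcription factor, had 3.53, 1.63 and 1.67 cpm in wild-type and 2.70, 6.44, 5.18 and 3.85 cpm in CD hippocampi (log2 fold change, 1.06; SE, 0.39). Arc, a regulator of AMPA receptor endocytosis, had 80.3, 71.9 and 68.5 cpm against 99.8, 86.4, 111 and 71.4 cpm (log2 fold change, 0.32; SE, 0.15, and not at the threshold without mouse m118). Both overlapped between genotypes, through mouse m118 for Npas4 and mouse m242 for Arc. Npas4 was below 5 cpm in every wild-type library and passed the filter only through CD mice m138 and m190. Of 17 glucocorticoid-responsive genes, Nfkbia, the inhibitor of NF-kappaB, was lower at the threshold (61.1 to 73.6 cpm against 54.2 to 59.7 cpm; log2 fold change, -0.29; SE, 0.11), and without mouse m118 there were 2 lower members. Fkbp5 had 9.30 to 13.3 cpm and 11.1 to 15.5 cpm, and Sgk1 had 954 to 1482 cpm and 803 to 1198 cpm. Clock genes had 0 of 14 members at the threshold, with Dbp at 28.3 to 40.6 cpm and 27.1 to 35.6 cpm and Per2 at 12.7 to 16.2 cpm and 11.1 to 15.2 cpm.

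Genes of the interferon response and nucleic acid sensing were below 0 in 9 of 11 cases (all genes tested, 51.3%), with a median of -0.22. At the threshold, 2 members were lower (all genes tested, 1.83%). Oasl2, an interferon-induced protein of the OAS family, had 19.7, 13.1 and 26.5 cpm in wild-type and 12.3, 7.80, 15.1 and 9.77 cpm in CD hippocampi (log2 fold change, -0.82; SE, 0.27). Irf9, which carries interferon signals to DNA, had 15.3, 19.4 and 22.8 cpm against 10.8, 13.4, 16.98 and 12.8 cpm (log2 fold change, -0.50; SE, 0.19). Ifit3 had 25.2 to 42.6 cpm and 13.8 to 31.9 cpm. Wild-type mouse m244 was the highest library for all 3, the summed list was 264 to 411 cpm in wild-type and 209 to 289 cpm in CD hippocampi, and the median was -0.34 without mouse m118 but 0.02 without mouse m244, so its direction rested on that library. Genes of glial reactivity were below 0 in all 8 tested cases (median, -0.22), or 7 of 8 without mouse m118, beside 51.3% of all genes tested. Vim, an intermediate filament of reactive glia and vessels, had 7.49 to 8.14 cpm against 4.46 to 6.603 cpm (log2 fold change, -0.51; SE, 0.21, and not at the threshold without mouse m118), and Lpl, a lipase, had 141 to 146 cpm against 115 to 137.8 cpm (log2 fold change, -0.22; SE, 0.10). Without wild-type mouse m244 the median of this list was -0.02, and Serpina3n had 40.5 to 63.8 cpm and 44.3 to 67.5 cpm.

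Of the 52 lists, that of imprinted genes held the most members at the threshold by count: 4 of 17 tested were higher at an unadjusted p below 0.05, also without mouse m118, beside 2.39% of all tested genes. It is singled out here as the highest of 52 lists. The share was larger in the pituitary list (2 of 2, higher), the neocortical list (2 of 7, higher) and the list of glial reactivity (2 of 8, lower). Grb10, an adaptor that inhibits insulin signalling, had 36.3, 32.3 and 36.8 cpm in wild-type and 43.4, 52.7, 43.0 and 67.7 cpm in CD hippocampi (log2 fold change, 0.56; SE, 0.16). Nap1l5, a nucleosome assembly protein family member, had 185, 179 and 157 cpm against 218, 243.6, 189 and 217 cpm (log2 fold change, 0.32; SE, 0.11). Impact, a regulator of translation, had 25.2, 17.2 and 19.6 cpm against 32.4, 29.8, 23.3 and 29.0 cpm (log2 fold change, 0.47; SE, 0.17). Peg10, a gene derived from a retrotransposon, had 3.37, 3.95 and 4.33 cpm against 4.42, 5.31, 8.20 and 5.64 cpm (log2 fold change, 0.61; SE, 0.28). The CD libraries were above all wild-type libraries for Grb10, Nap1l5 and Peg10, as for 2.77% of all genes tested. Peg10 was below 5 cpm in every wild-type library and passed the filter only through CD libraries. The median of the list was 0.13, with 12 of 17 genes above 0 (all genes tested, 48.7%). The summed list, 2123 to 2543 cpm in wild-type and 2211 to 2822 cpm in CD hippocampi, overlapped.

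In housekeeping and metabolic groups the median log2 fold change was 0.02 over 45 nuclear genes of oxidative phosphorylation, -0.03 over 31 ribosomal protein genes, -0.007 over 28 proteasome subunits, 0.02 over 17 genes of cholesterol synthesis and -0.03 over 13 genes of glycolysis. At an unadjusted p below 0.05 there were 2 members in all of these, Uqcrc2 of complex III with 108 to 111 cpm against 122 to 140 cpm (log2 fold change, 0.25; SE, 0.09) and Sdha of complex II with 395 to 554 cpm against 334 to 405 cpm (log2 fold change, -0.30; SE, 0.13, and not at the threshold without mouse m118). Chaperones had 0 of 17 members at the threshold (median, 0.12), with Hspa1a at 5.05 to 7.33 cpm and 6.603 to 8.25 cpm and Hsp90ab1 at 590 to 617 cpm and 561 to 674 cpm. Proteins of the miRNA pathway and of circRNA biogenesis also had 0 of 17 (median, -0.05), or 1 lower without mouse m118, with Dicer1 at 16.3 to 18.3 cpm and 15.8 to 20.7 cpm. Tub, the relative of Tulp4 that passed the filter, had 17.8 to 20.1 cpm in wild-type and 20.3 to 24.03 cpm in CD hippocampi, without overlap but not at the threshold.

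The last groups were added late, with the values of their genes already seen. Around the edit, 10 tested genes lay near Tulp4 (1000000 bases or less), of which 0 were at an unadjusted p below 0.05, or 1 higher without mouse m118. Their log2 fold changes lay between -0.11 and 0.25, with Arid1b, a chromatin remodeling subunit, at 166 to 187 cpm in wild-type and 157 to 189 cpm in CD hippocampi, and Ezr, which links membranes to actin, at 94.9 to 116 cpm and 92.5 to 157 cpm. Of 7 genes that mark the ventral hippocampus, 4 were higher at an unadjusted p below 0.05 (all genes tested, 2.39%), or 5 without mouse m118. With all libraries these were Dcn and Etv1, Pde11a, a phosphodiesterase, with 11.98 to 14.8 cpm against 14.96 to 32.6 cpm, and Grp, a neuropeptide, with 10.99 to 25.1 cpm against 27.7 to 51.3 cpm. The summed list was 264, 224 and 253 cpm in wild-type and 350, 422, 296 and 431 cpm in CD hippocampi. Dcn and Etv1 are among the higher genes ranked first by p. The ventral list was chosen with these values known, so that neither its count nor its sum is a test. The other 3 (Htr2c, Nr2f2 and Trhr) overlapped, as did the dorsal genes Wfs1, Lct and Spink8, whose sum was 59.3 to 86.0 cpm and 66.6 to 90.3 cpm. How much of the dorsal and ventral hippocampus each library holds is not given in the labels, and its part in these values was not tested.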

How the data were processed

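Total RNA of dissected tissue was made into CelSeq2 libraries, which read the 3′ end of polyadenylated RNA. According to the study's methods, the authors aligned reads with STAR to mm10 and counted them with ESAT, and the deposited values are raw counts per RefSeq transcript. Collapsing of molecular identifiers is not stated, so intervals on counts cover counting error only. Of 85964 transcripts, 69288 (81.4% of counts) matched a gene symbol by identifier without version, giving 23037 genes, and the transcript with the most counts summed over 22 libraries stood for each gene.

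Genes that reached 5 cpm in 2 or more of the 7 hippocampus libraries were fitted with edgeR 4.0.16 (R 4.3.3; TMM; quasi-likelihood test; Benjamini-Hochberg adjustment). Called genes had an FDR below 0.01 and a fold above 2 or below 0.5. Differences between regions were tested over all 22 libraries at an FDR of 0.05. Single values were compared by exact permutation on log2(cpm + 0.5). Alternatives used DESeq2 1.42.0, limma-voom (limma 3.58.1), other scaling and filters, distinct transcripts, and single libraries left out. Fits were tested on simulated data. No mouse contributed to both genotypes, so the hippocampus comparison has no pairs. Regions of 1 mouse are paired by animal, and the consensus correlation within mice was 0.029. Replicate libraries differed beyond sampling noise (chi-square per degree of freedom, 7.57 to 19.12). Libraries held 4025493 to 8858940 counts.

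The text names the first 2 genes of each list, Tulp4 and genes the study singled out or measured as proteins, the 8 higher and 8 lower genes of smallest p, up to 4 list members with an unadjusted p below 0.05, and the 10 most variable genes. Some genes that this rule names are not reported here. Genes of the lists added late were named after their values were seen. Members and lists were chosen with earlier results of these data known.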

Additional observations from a re-analysis of the deposited data

Results flagged for a closer look

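Among 127 groups of 4 CD hippocampi examined, 8 had 1 library far from the other 3, where chance gives about 1 in 20 groups, or 6.4. Mouse m118 stood apart with a Tulp4 excess of 3.98 cpm (others, 0.42 to 0.57 cpm), with Frrs1 at 2.21 cpm (6.19 to 6.603 cpm), with Zxdc at 15.9 cpm (20 to 20.3 cpm) and with a sum of nuclear oxidative phosphorylation genes of 8359 cpm (9249 to 9402 cpm). Mouse m138 stood apart with Homer3 at 59.1 cpm (73.8 to 75.5 cpm) and with a sum of sodium, potassium and HCN channels of 3610 cpm (3925 to 3957 cpm). Mouse m242 stood apart with Gm36251 at 6.88 cpm (1.72 to 2.15 cpm) and with a sum of interferon response genes of 208.8 cpm (280.2 to 288.5 cpm). The causes were not tested.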

How the results depend on the processing

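Without a filter on low counts, 6 genes were called in place of 0, 535 were higher and 396 lower at an unadjusted p below 0.05, and the region difference passed for 5 genes (cortex) and 8 (cerebellum), or 876 and 1007 at an unadjusted p below 0.05. DESeq2 called 2 genes. The causes were not tested. With single libraries left out, the number of genes without overlap ran from 391 to 740 (higher) and 400 to 716 (lower), fewer libraries making overlap rarer, and the region difference against the cerebellum ran from 0 to 2 genes, with 2 without wild-type mouse m162. The log2 difference of Tulp4 NM_001103181.1 ran from -0.18 to 0.49, and that of Gm36251 from 2.17 to 2.74, where 3 libraries against 3 cannot give a p below 0.1 and 2 against 4 none below 0.0667. Estimates turned for Gria1 (-0.36 to 0.08), Gria2 (-0.093 to 0.144), Dlg4 (-0.048 to 0.306), Syn1 (-0.143 to 0.025) and Ppp2r1b (-0.159 to 0.049). With mouse as replicate block in limma-voom, the region difference passed for 0 genes against either region, with 416 and 530 genes at an unadjusted p below 0.05 against 379 and 509 without the block, and the block changed no call. Of the list medians, 22 of 439 under other settings and 26 of 385 with a library left out moved by more than the spread between replicates. Low counts limit Gm34045, Gm36251 and Ppp3cc.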
